A study of Mus musculus with 6 samples.

Results

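The arrays described here are those of 3T3 cells transfected with a control oligonucleotide, and the question they answer is which genes these cells expressed, how brightly, and how evenly from culture to culture. All arrays labelled GapmeR control were taken, which are 3 of the 6 arrays of the series. The other 3 arrays were treated with a GapmeR against the noncoding RNA Ntep and were not compared. 3T3 cells, called NIH3T3 in the study's abstract, are an established line of mouse embryonic fibroblasts. They were grown in DMEM with 10% FBS and 1% PS and received 50 nM GapmeR control, a negative control oligonucleotide carried into the cells by a lipid reagent, for 48 h. The methods describe 3 independent experiments and array names in a supplement carry a different day for each control array, whereas the labels do not say whether the arrays came from separate dishes, so the arrays are called cultures 1 to 3 in the order of the labels. Total RNA was labelled in 1 colour and hybridized to an Agilent mouse array whose probe positions are given on mm9. The labels name one RNA kit (miRNeasy) and the methods another (RNeasy), and the names in the supplement put the dose at 2 × 50 nM.

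Fibroblasts build the connective tissue: they secrete collagens and other matrix proteins, cut and crosslink them with enzymes of their own, and hold on to them with integrins that pull on the actin skeleton. A GapmeR is an antisense oligonucleotide with a DNA core that pairs with an RNA and lets RNase H cleave it in the nucleus. A control GapmeR has no intended target, so its arrays show the cells under transfection rather than untouched cells.

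Each array held 55681 probes after spots of the same probe were averaged, and they covered 22950 named genes. A signal was normalized so that the arrays shared one distribution, values under 20 were set to 20 (the floor), and each gene was read from its brightest probe. A gene was called present on an array when most of that probe's spots were well above the local background. By this call 14417, 13752 and 13778 genes were present in cultures 1 to 3. Among the 308 spots of negative control probes, 0.325, 0.974 and 1.95% passed the same call, and no spot was saturated. Probes differ in how strongly they bind, so a rank below is a rank of signal and only roughly one of RNA amount. Among 3661 genes with several present probes, the dimmest and brightest probe of a gene lay a median of 2.51 apart on the log2 scale. The log2 ratio of 1 gene between cultures compares a probe with itself. It too differed between the probes of some genes, which are counted near the end of the results.

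Culture 1 stood apart from the other 2. Across the 13130 genes present on all 3 arrays, log2 signals of cultures 2 and 3 correlated at a Pearson r of 0.996, and those of culture 1 with them at 0.972 and 0.971, for a mean over the 3 pairs of 0.980. These values are across genes of 1 probe set, which are not independent, and describe only how alike the arrays were. At least 2-fold apart between cultures 2 and 3 were 93 present genes (0.708%), against 1478 between cultures 1 and 2 (11.3%) and 1472 between cultures 1 and 3 (11.2%). All 6 arrays of the series share 1 slide and 1 scan time in the file headers. The days in the supplement differ for all 3 cultures, so day and culture cannot be told apart, and an effect of the day was not tested. The same names end in 1 for culture 1 and in 2 for the others, a number given without a key. Signals of single genes are therefore given for each culture.

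**Figure D1:**
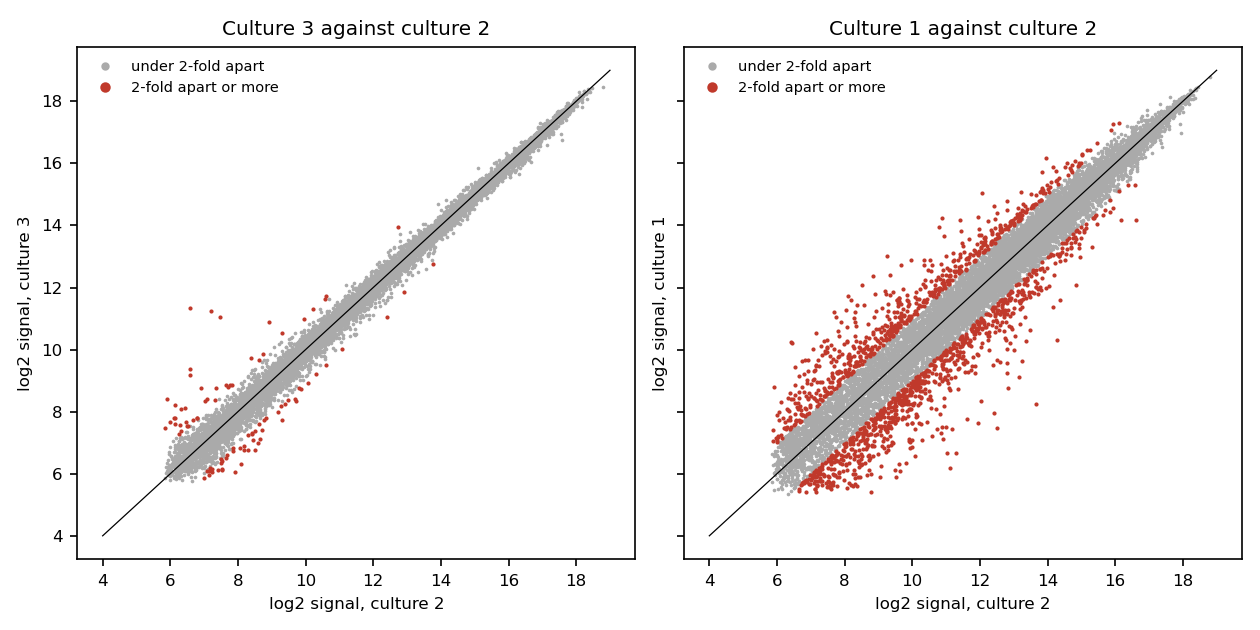
Log2 signals of the 13130 genes present on all 3 arrays, culture 3 against culture 2 (left) and culture 1 against culture 2 (right), each point 1 gene and the line marking equality. Red points are at least 2-fold apart, 93 genes on the left and 1478 on the right.

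On all 3 arrays 13130 of 22950 genes (57.2%) were present, a further 569 were present on 2 arrays and 1419 on 1. No array showed 7832 genes, and 4783 genes read the floor in each culture. Cultures 2 and 3 alone shared 13327 present genes. Counts of list members below are to be read beside the shares over all genes. Of present genes 13.8% spanned 2-fold and 0.708% were 2-fold apart between cultures 2 and 3. At least 2-fold higher in culture 1 than in both others were 3.72%, and 5.21% were lower. The mean signal of a present gene ran from 55.0 to 421102, with a median of 4859, and the 25 brightest genes together held 3.00% of the summed signal. Protein-coding genes were present in 60.1% of 20181 cases and long noncoding RNAs in 25.1% of 1756. Antibody and T cell receptor V segments, which lymphocytes assemble, were present in 2 of 44. Of genes probed on the X chromosome 48.5% were present, the lowest share of any chromosome but the Y (3 of 22), while chromosome 8 had the highest share among the numbered ones over all gene types (63.8%) and chromosome 12 among protein-coding genes (68.0%).

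The brightest gene was Tuba1b, an alpha-tubulin of the microtubules, at 454916, 454916 and 360826 in cultures 1 to 3. The ribosomal protein genes Rps9 and Fau followed, with 360826, 360826 and 355931 for Rps9, and Cox6a1, a subunit of the respiratory chain's last complex, came next. Rank 6 was held by Mdm2, whose product marks the tumour suppressor P53 for breakdown. Among the 25 brightest were also Tpt1 (a translationally controlled protein), the glycolytic enzymes Gapdh and Aldoa, the mitochondrial malate dehydrogenase Mdh2, the mitochondrially encoded oxidase subunit COX1, the ferritin heavy chain Fth1 and the exosome subunit Exosc2. In all, 11 of the 25 were ribosomal protein genes. Gm8580, Rpl10a-ps1, Tpt1-ps5 and Gm5786 on that list are pseudogenes, and the Rpl10a-ps1 probe overlaps that of Rpl10a in position, so those signals cannot be told apart.

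**Figure D2:**
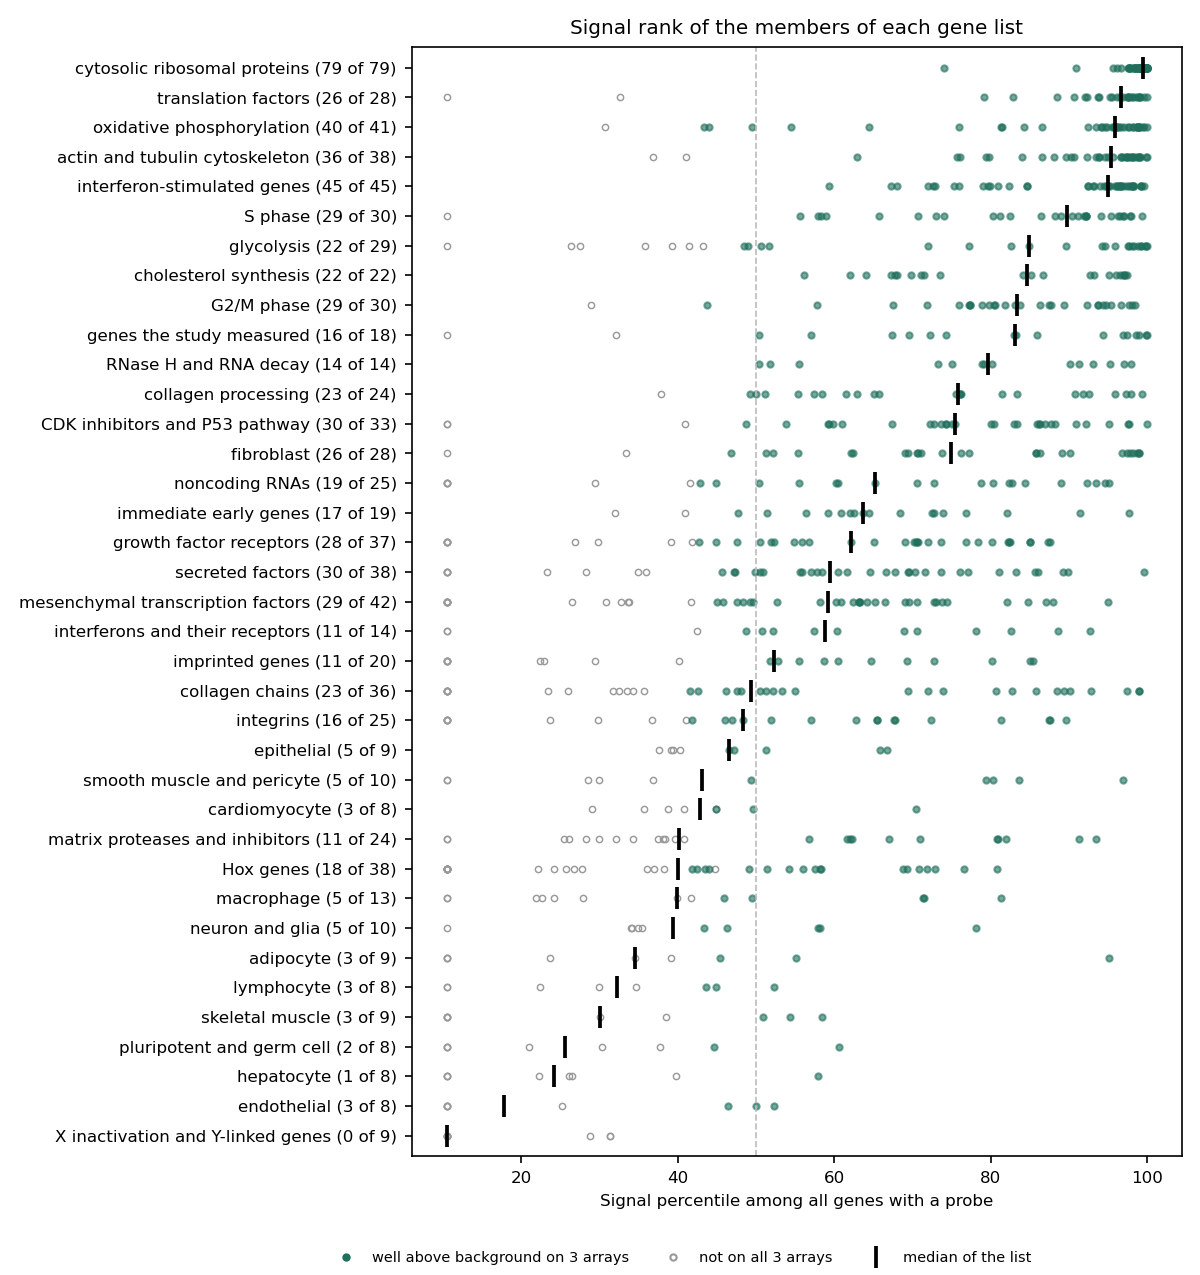
Signal percentile of every member of the 37 gene lists among all 22950 genes with a probe, each point 1 gene and the bar the median of its list. Filled points were present on all 3 arrays, and the counts of present members stand beside each name. Ribosomal proteins had the highest median (99.5) and the X inactivation and Y-linked genes the lowest (10.4).

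Genes of protein synthesis ranked high. Present on all 3 arrays were 79 of 79 cytosolic ribosomal protein genes, with a median percentile of 99.5 where all genes have 50.0. The dimmest of them were Rps21 at 30955, 32896 and 42996 and Rpl21 at 5951, 6659 and 6618. Their median SD between cultures was 0.06 on the log2 scale, against 0.22 over all present genes, and without culture 1 it was 0.03 against 0.08. By its brightest probe no ribosomal protein gene spanned 2-fold, beside 13.8% of all present genes. A dimmer probe of Rpl22 (6309, 24483 and 22995) and 1 of Rpl17 (7181, 21280 and 14352) did. Translation factors were present in 26 of 28 cases, again with no member spanning 2-fold. Brightest after Tpt1 were the initiation factor subunit Eif3c at 228565, 226839 and 198020.5, the poly(A) binding protein Pabpc1 and the elongation factor subunit Eef1d. Eef1a2, the elongation factor form of muscle and neurons, was at the floor in each culture. Eif5b, which joins the ribosomal subunits, was present on no array. Each was read from its only probe, whose response to the RNA was not tested. The widest of the present members of this list was Eif6, which keeps the large ribosomal subunit free, at 50528, 27904 and 28532, with culture 1 above the others. Eif4e1b, which is not in the list, had a wider span (102, 2090 and 1887).

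Energy metabolism came next. Of the oxidative phosphorylation genes 40 of 41 were present. Cox8a read 210963, 228565 and 211399.7 and the ATP synthase subunits Atp5g2 and Atp5g3 stood close to it. Some forms that other tissues favour were dim or missing. The lung form Cox4i2 read 124, 72.4 and 85.2, the testis cytochrome Cyct 112, 83.3 and 105, and Cox8b was present on no array. Cox7a1, a muscle form, was the only member to span 2-fold, at 1289, 3013 and 3227, lower in culture 1.

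In glycolysis 22 of 29 genes were present. Gapdh (308562, 303135 and 306066), Aldoa (311781, 294331 and 258177), Ldha, which turns pyruvate into lactate (261250.0, 232659 and 239560.1), and Pgam1 (184712, 197893 and 175714) were the brightest. The liver kinase Pklr was at the floor, and Hk3 and the sperm kinase Pgk2 were present on no array. At least 2-fold lower in culture 1 than in both others were 5 members, beside 5.21% of all present genes, and 1 was higher (3.72%). The brain aldolase Aldoc, at 18676, 101338 and 97700.1, differed most in absolute terms. Ldhb, which favours lactate use, read 8473, 26515 and 28020.4, the muscle mutase Pgam2 79.1, 364 and 476 and the glucose carrier Slc2a3 74.7, 341 and 407. All of these were low in culture 1 alone, whereas Slc2a1, the glucose carrier of most growing cells, read 125223, 98544 and 94023.

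Cholesterol synthesis was present in full (22 of 22 genes). Msmo1, which strips methyl groups from the sterol ring, read 100878, 104955 and 98017. Ebp, an isomerase of the same branch (82453, 107565 and 97341), and Fdps, which makes farnesyl diphosphate (72433, 103763 and 106578), followed. The retention factor Insig1 was the dimmest, at 625, 889 and 855. Culture 1 lay below the mean of the others for all but 5 of the genes, by a median log2 difference of -0.35, which ran from -0.35 to -0.21 under the scalings tried. The sterol reductase Tm7sf2 (1637, 7865 and 8294) and the decarboxylase Mvd (2890.2, 5978 and 6832) passed 2-fold. Thus 2 of 22 were at least 2-fold lower in culture 1, beside 5.21% of all present genes. Between cultures 2 and 3 no member differed 2-fold, beside 0.708%.

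The label of a fibroblast line was checked against its markers. Of the fibroblast list 26 of 28 genes were present, with a median percentile of 74.996 and summed signals of 1104594.5, 1124432 and 1031768. Brightest were the fibrillar collagen chains Col3a1 (142464, 197494 and 166600.4) and Col1a2 (162862, 181393 and 151381), then S100a4, a calcium binding protein of motile fibroblasts (167305, 142650.3 and 131438), and the intermediate filament Vim (117762, 131438 and 123319). Vim, Sparc and Fn1, the last of which lays down fibronectin, changed little between cultures. Postn, an adhesive matrix protein, was the dimmest present member at 109, 174 and 212. At the other end Fap, a surface protease of activated fibroblasts, was at the floor in each culture, and Lum, a collagen-binding proteoglycan, read above it only in culture 3 (20, 20 and 90.8).

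Several fibroblast markers depended on the culture. Dcn, a proteoglycan that coats collagen fibrils, read 95.5, 1075 and 670.2, and the receptor Pdgfra 708, 3513 and 2221. Both were lowest in culture 1, as were the collagen VI chains Col6a1 (11438, 28565 and 25199.9) and Col6a2 (171, 601 and 427). Lox, which crosslinks collagen, at 1716, 665 and 301, and the collagen receptor Ddr2, at 8917, 2359 and 4306, were highest there. A second present probe of Ddr2 was less than 2-fold apart, at 2216, 1553 and 1489. Of 26 present markers 4 were at least 2-fold lower and 2 higher in culture 1 than in both others, beside 5.21% and 3.72% of all present genes. Only 1 (Lox) differed 2-fold between cultures 2 and 3, beside 0.708% of all present genes. In bulk RNA, fewer cells of a kind and less RNA per cell cannot be told apart.

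Lists of markers of other cell types had smaller shares present than the 92.9% of the fibroblast list, from 12.5% to 55.6%, beside 57.2% of all genes. The share was close to that of all genes for epithelial markers (55.6%). So it was for neuronal and glial markers (50.0%) and for smooth muscle and pericyte markers (50.0%). Endothelial genes were present in 3 of 8 cases, at summed signals of 861, 1042 and 1085, led by the receptor Kdr (434, 389 and 449), with the junction protein Cdh5 and the angiopoietin receptor Tek at the floor. For lymphocytes 3 of 8 were present, with Cd4 brightest (596, 335 and 371) and Cd8a and Ms4a1 at the floor. Hepatocytes had 1 of 8 (Apoa2, 1103, 916 and 990.5), with albumin (Alb) at the floor. Epithelial markers were present in 5 of 9 cases, namely the keratins Krt19, Krt8, Krt14, Krt5 and Krt18, of which Krt8 read 1508, 3629 and 3647 and Krt14 1268, 177 and 193. The epithelial adhesion molecules Cdh1 and Epcam each passed background on 1 array only. Among neuronal and glial markers 5 of 10 were present, and Snap25, a vesicle fusion protein, was the brightest at 11067, 7752 and 10531, with Stmn2 at the floor. Adipocyte markers reached 3 of 9, where lipoprotein lipase (Lpl) stood out at 45764, 76105 and 67380.5, and Adipoq, Lep and Cd36 were at the floor. Skeletal muscle markers had 3 of 9, the troponin Tnnt3, the actin Acta1 and the factor Myog, with Myod1 and Myf5 at the floor. All 3 spanned 2-fold, beside 13.8% of all present genes. Acta1 was higher in culture 1 (1041, 453 and 443), while Myog (151, 536 and 439) and Tnnt3 were lower. Pluripotent and germ cell markers had 2 of 8, Nanog at 853, 1801 and 2084 by 1 probe and 566, 452 and 477 by another, and Dppa5a, while Sox2 and Ddx4 were at the floor and Pou5f1 was present on no array.

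Macrophage genes were present in 5 of 13 cases, with summed signals of 28514, 20879.7 and 22112. Most of it came from 1 probe of Itgam, an integrin of myeloid cells, at 14869, 10958 and 13179.6, while the other probes of Itgam read 66.0, 69.4 and 90.4 and 21.5, 20 and 20. The lipopolysaccharide co-receptor Cd14 read 6442, 4605 and 3936 and the lysosomal protein Cd68 5255, 4787 and 4571. The defining leukocyte phosphatase Ptprc and the complement chain C1qa were at the floor, and Adgre1 and Tyrobp were present on no array. Csf1r, the receptor for the growth factor of macrophages, was the one member at least 2-fold higher in culture 1, at 1473, 144 and 84.4. That difference rests on 1 probe, since a second present probe of Csf1r was even at 228, 209 and 178 and the last was not present.

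Collagen genes were read as part of the matrix that the cells coded for. Of the collagen chains probed 23 of 36 were present (63.9%, beside 57.2% of all genes). After the chains of types I and III the brightest was Col16a1, a fibril-associated chain, at 37611, 48145 and 49925. Col1a1, partner of Col1a2 in type I collagen, had a signal of 102470.0 ± 4484 (SD, n = 3). Type V chains, which set the width of fibrils, were represented by Col5a1 (35648, 30386 and 31367), Col5a3 and Col5a2, and basement membrane collagen by Col4a5 (20426, 36341 and 33622), Col4a1 and Col4a2. Dimmest of the present chains were Col14a1 and Col25a1, a membrane collagen. Present on no array were 12 chains, among them the cartilage chains Col9a1, Col9a2, Col9a3, Col10a1 and Col11a1. The cartilage chain Col2a1 was present at 61.9, 209 and 219 and Col11a2 at 231, 1124 and 1102, both lower in culture 1. No collagen chain was 2-fold higher in culture 1 and 4 of the 23 present were lower, beside 3.72% and 5.21% of all present genes.

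The enzymes that fold, trim and crosslink collagen were present in 23 of 24 cases, at a median percentile of 75.8. Pcolce, which speeds the removal of the procollagen tail, read 201339, 190002 and 193223, the collagen chaperone Serpinh1 115929.7, 116821 and 121386, and the isomerase Ppib 98272, 102867 and 95273. The prolyl 3-hydroxylase P3h2 was the one member not present on all arrays. Among crosslinking oxidases Loxl1 was even at 9067, 7657 and 7661, whereas Loxl4 read 15643, 5620.5 and 5892, higher in culture 1 as Lox was. P4ha3, a prolyl 4-hydroxylase subunit, was dim and also higher there (443, 184 and 191), and P3h3 was lower (959.9, 2704 and 2784).

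Of the matrix proteases and their inhibitors 11 of 24 were present (45.8%, beside 57.2% of all genes), 3 of them the inhibitors Timp1, Timp2 and Timp3. Brightest was Timp1, which blocks metalloproteases, at 74261, 40467 and 37602. The sheddase Adam10 read 41019, 35235 and 34733 and the inhibitor Timp2 18463, 11408 and 12308. Of the inhibitors Timp3 differed most, high in culture 1 alone (2975, 1365 and 1323). Among metalloproteases Mmp11, Mmp23 and Mmp14 were present, the last at 506, 1164 and 1050.4, while the gelatinase Mmp2 passed background on 1 array (72.5, 20 and 20) and Mmp12 and Mmp19 were at the floor. Over the 11 present members culture 1 exceeded the mean of the others by a median of 0.64 on the log2 scale (from 0.62 to 0.80 under the scalings tried), against 0.02 over all present genes. The difference was positive in 8 of the 11. Mmp11 (3564, 5402 and 5212) and Mmp23 (1389, 2162 and 1996) were lower in culture 1, as was Mmp14.

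Integrins were present in 16 of 25 cases (64.0%, beside 57.2% of all genes). The vitronectin receptor chain Itgb5 (27337, 31848 and 32549.7), the laminin receptor chain Itga6 (26767, 21755 and 24045) and the shared beta chain Itgb1 (28284, 22733 and 20687) were brightest. Itgav, partner of Itgb5, was higher in culture 1 (6607, 2464 and 2287), as was Itgb7. The collagen-binding Itga10 (3113, 6644 and 7716) and Itga1 (96.4, 214 and 210.0) and the leukocyte chain Itgal (110.3, 293 and 302) were lower. Thus 2 of the 16 present integrins were at least 2-fold higher and 3 lower, beside 3.72% and 5.21% of all present genes. Itga4, Itga8, Itga9, Itgax and Itgb8 were at the floor. The collagen-binding chain Itga2 passed background in culture 3 only.

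Most genes of the actin and tubulin skeleton were bright, with 36 of 38 present and a median percentile of 95.3. Beside Tuba1b, the brightest were the cytoplasmic actin Actb (281005, 254851 and 260488), the myosin light chain Myl6 (205783, 157808 and 159226) and the beta-tubulin Tubb5 (201082, 162088 and 154959). Culture 1 lay above the mean of the others in 29 of the 36 present genes, by a median log2 difference of 0.41 that ran from 0.41 to 0.53 under the scalings tried. At least 2-fold higher in culture 1 were 5 of them, and 0 were lower, beside 3.72% and 5.21% of all present genes. These were Acta2, the smooth muscle actin of contractile fibroblasts (163239, 71576 and 59758), the actin bundling protein Tagln (28565, 7107 and 6244), the myosin light chain Myl9 (19696, 3917 and 5849), the adhesion protein Zyx (88115, 36852 and 35139.9) and the actin monomer binder Tmsb4x (63162, 26992 and 21217). Cultures 2 and 3 were less than 2-fold apart for each of the 5. Without culture 1 no gene of the list spanned 2-fold, beside 0.708% of all present genes.

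Genes of smooth muscle and pericytes overlap with this set. Present were 5 of 10, with summed signals of 229427, 103478 and 91501, most of it from Acta2. Mcam, a pericyte adhesion molecule, read 17370.3, 15403 and 15638 by its brightest probe and 1194, 595 and 629 by another. Smtn, a smooth muscle actin binder, was higher in culture 1, at 19832, 8979.8 and 9357, as were Acta2 and Tagln. The muscle filament Des was lower there, at 145, 303 and 368. The contractile regulator Cnn1 read 195, 20 and 20, present in culture 1 only, while the defining markers Rgs5 and Kcnj8 were at the floor and Myh11 and Cspg4 were present on no array. Cardiomyocyte markers showed 3 of 8 present and summed signals of 8676, 3921 and 4574, most of it from the troponin Tnnt2 (8007, 3149 and 3361). Tnnt2 and the myosin Myh7 (243, 92.9 and 65.1) were higher in culture 1 and the troponin Tnni3 lower (110.2, 397 and 443), with Nkx2-5 on no array.

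Promoters were read for the CArG box, the motif bound by serum response factor, which drives many contractile genes. It occurred in 5 of 34 cytoskeleton genes that had a promoter in the RefSeq table (14.7%), against 1.81% of all genes in it and 1.36% of those at least 2-fold higher in culture 1. The list holds contractile genes of the kind that this factor drives, so its share describes the list and is no result of these cultures. A match is a description of the sequence and shows no binding. The promoter of Myl9 (chr2:156775214-156775463, plus strand, GRCm38.p6) is shown because its gene had both the motif, in capitals, and a high signal in culture 1. The search covered 250 bases before and 50 after each gene's start, and those before it are printed.
Myl9: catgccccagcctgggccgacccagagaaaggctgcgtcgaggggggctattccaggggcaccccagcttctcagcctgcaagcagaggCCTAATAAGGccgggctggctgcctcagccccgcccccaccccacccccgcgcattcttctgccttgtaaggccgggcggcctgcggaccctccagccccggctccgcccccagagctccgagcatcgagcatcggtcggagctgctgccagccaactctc

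Most genes of S phase and mitosis were present on all arrays, and 1 of them spanned 2-fold. Over all genes 57.2% were present, and 13.8% of the present ones spanned 2-fold. Of the S phase genes 29 of 30 were present, led by the replication helicase subunits Mcm6 (198882, 193938 and 189626) and Mcm4 (140394, 110304 and 97173) and the polymerase clamp Pcna (107066, 123456 and 110077). Rrm2, which makes deoxynucleotides, read 112087, 89559.7 and 83401. Ccne2 was at the floor while its relative Ccne1 read 40274, 41511 and 40957. The polymerase subunit Pola1 was the only S phase gene to span 2-fold, at 3447, 8771 and 8807. Of the G2/M genes 29 of 30 were present and none spanned 2-fold. The kinetochore motor Cenpe (139654, 150873 and 117345), the anaphase activator Cdc20 (131051, 116152 and 110765), the survival protein Birc5 and the cyclin Ccnb2 ranked first, and Mki67, a common mark of cycling cells, read 48714, 55329.7 and 47643. Aurkb, the kinase of the chromosomal passenger complex, was present on no array by its only probe (20, 34.2 and 25.9). Whether that probe responds to the RNA was not tested. Its partner Birc5 was among the brightest, at 118057, 107336 and 99913. Cenpf was dim at 102, 99.4 and 88.2, also by its only probe.

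Inhibitors of the cycle and the P53 pathway were present in 30 of 33 cases. Mdm2 was the brightest, at 335379, 306066 and 333100.2 from its only probe (chr10:117126010-117126069, mm9). Around it on the chromosome, Nup107, a nuclear pore subunit, read 123131, 119639 and 144045, the carboxypeptidase Cpm 58079, 102756 and 90115, the carrier Slc35e3 25529.8, 49224 and 44479.6 and the GTPase Rap1b 51155, 45964 and 41989. Farther out the signals fell, to 357, 411 and 456 for Mdm1 on one side and 6696, 5144 and 4790.2 for Cpsf6, 10139.8, 5526 and 3339 for Lyz1 and 1798, 1648 and 1592 for Yeats4 on the other, while Lyz2, 9530003J23Rik, Il22 and Iltifb were not present on all arrays. These neighbours were looked up after the signal of Mdm2 had been seen, and gene copy number was not measured. Trp53, which codes for P53, read 4685, 2738 and 2634, and its target Cdkn1a, an inhibitor of cyclin-dependent kinases, 7321, 5579 and 6983.

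Cdkn2a, which codes for the inhibitor p16 and the Mdm2 antagonist ARF, read 88616, 117519 and 118108, percentile 97.6. A second probe of Cdkn2a gave 3108, 3029 and 3512. NIH 3T3 stocks have been described as lacking this locus. Which stock the cells of these arrays came from, and what the probes bound, was not tested. Next to it, Cdkn2b, a sister inhibitor, read 24178, 20690.0 and 17864 and Mtap, a methionine salvage enzyme, 7617, 6283 and 6091. Among effectors of cell death, Bax, which opens the mitochondrial membrane, read 12265, 27613 and 24889.5 and Bak1, of the same role, 17019, 14442 and 14201. Bax and Sesn1, a stress-induced regulator (3477, 10052 and 10303), were the members that spanned 2-fold, both lower in culture 1. The death effector Pmaip1 and the inhibitor Cdkn1c were at the floor. Mdm4, the relative of Mdm2, was the dimmest present member at 172, 279 and 236.

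Genes induced by interferon ranked high in all 3 cultures. Each of the 45 interferon-stimulated genes was present, at a median percentile of 95.02. The antigen presenting molecule H2-K1 read 231204, 234168 and 213664, the ubiquitin-like modifier Isg15 200322, 192855 and 175655, the virion tether Bst2 171818, 197164 and 189240.4 and the chaperone Rtp4 179298, 181189 and 179593. Antiviral effectors were close behind. The RNA-sensing synthetase Oas1a read 126757, 144045 and 126993, Ifit3, which binds viral RNA, 134021, 130997 and 120097, the chemokine Cxcl10 138139, 125304 and 102425 and the GTPase Mx1 49557, 75038 and 54059. Dimmest were the GTPase Gbp5 (1419, 1529 and 871) and the peptide carrier Tap1. The interferon response factors Stat2 (106636, 118741 and 88014) and Irf9 (49073, 45135 and 44100.3) were far brighter. The RNA sensors Ddx58 (90811, 93373 and 75197) and Ifih1 (9461, 7545 and 6853) were also present.

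Over the 3 cultures the spread of the interferon-stimulated genes was close to that of other genes, with a median SD of 0.22 against 0.22, and 6 of 45 spanned 2-fold, beside 13.8% of all present genes. Without culture 1 it was wider than that of all present genes, at 0.14 against 0.08. Tap1, which loads peptides for presentation, read 1954, 5377 and 3102, and Oas3 3273, 7817 and 6816, both lowest in culture 1. The chemokine Ccl5 was higher there, at 139550.5, 60570.0 and 59503. Between cultures 2 and 3 none reached 2-fold, beside 0.708% of all present genes.

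Among interferons and their receptors 11 of 14 genes were present. The receptor kinase Jak1 (48473, 44351 and 37701) and the receptor chains Ifngr1, Ifnar2 (12736, 16011 and 15237) and Ifngr2 were brightest, and Ifnar1 read 2873, 4388 and 4364. Ifnb1, the interferon that fibroblasts secrete, was present at 6318, 4633 and 2994, and Ifna4, Ifna5, Ifna2 and Ifna1 lay between 195 (Ifna1 in culture 2) and 2171 (Ifna4 in culture 1). The alpha interferons share much sequence, so their probes may not tell them apart. Of the present members 5 spanned 2-fold, beside 13.8% of all present genes, and the median log2 difference of culture 1 from the others was 0.46 (from 0.44 to 0.61 under the scalings tried). Ifnb1, Ifna4, Ifna5 and Ifna2 were highest in culture 1 and more than 2-fold above culture 3, while Tyk2, a partner kinase of Jak1, was lowest in culture 1, at 219, 686 and 462. Ifng, the interferon of lymphocytes, and Ifnlr1, a receptor of epithelia, were at the floor. No culture without a transfected oligonucleotide was part of these arrays, so its effect on these genes was not tested.

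**Figure D3:**
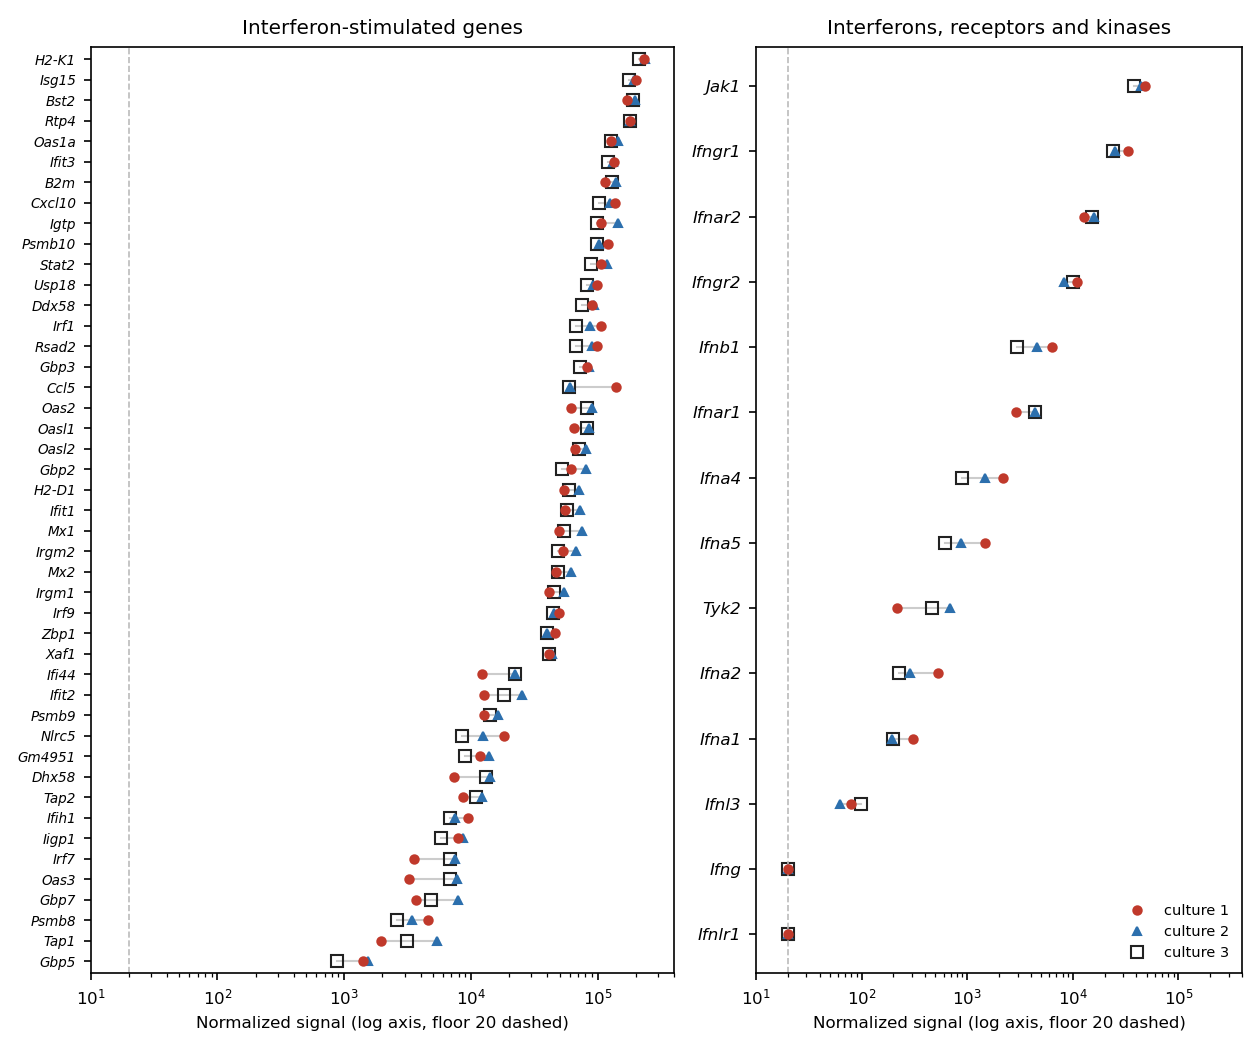
Normalized signals of the 45 interferon-stimulated genes (left) and of 14 interferons, receptors and receptor kinases (right) in cultures 1 to 3, ordered by mean signal, on a log axis. Each left-hand gene lies well above the floor of 20, down to Gbp5 at 1419, 1529 and 871.

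The promoters of the same genes were searched on both strands for 2 copies of GAAA with any 2 bases between them, the core of the interferon-stimulated response element. It stood in 19 of 33 interferon-stimulated genes with a promoter in the RefSeq table (57.6%), against 3.99% of all 27025 genes there and 3.70% of those present in the 3 cultures. The list holds genes known to respond to interferon, so the share describes the list and is no result of these cultures. The promoters of Isg15 (chr4:156200819-156201068, minus strand), Ifit3 (chr19:34583279-34583528, plus strand) and Cxcl10 (chr5:92348890-92349139, minus strand, GRCm38.p6) are printed as bright members of the group, with every match in capitals. Isg15 carries 3 overlapping matches, Ifit3 2 apart and Cxcl10 1, and again only the 250 bases before the start are shown.
Isg15: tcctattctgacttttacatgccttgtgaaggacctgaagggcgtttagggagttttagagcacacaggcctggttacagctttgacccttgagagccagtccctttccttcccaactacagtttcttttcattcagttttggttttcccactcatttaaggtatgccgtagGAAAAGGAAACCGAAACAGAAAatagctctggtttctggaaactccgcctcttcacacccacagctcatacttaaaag
Ifit3: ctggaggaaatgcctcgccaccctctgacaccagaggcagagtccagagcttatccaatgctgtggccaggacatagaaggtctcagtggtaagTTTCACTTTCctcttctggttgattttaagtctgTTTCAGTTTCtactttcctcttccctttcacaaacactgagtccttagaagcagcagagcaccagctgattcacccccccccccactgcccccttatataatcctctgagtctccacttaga
Cxcl10: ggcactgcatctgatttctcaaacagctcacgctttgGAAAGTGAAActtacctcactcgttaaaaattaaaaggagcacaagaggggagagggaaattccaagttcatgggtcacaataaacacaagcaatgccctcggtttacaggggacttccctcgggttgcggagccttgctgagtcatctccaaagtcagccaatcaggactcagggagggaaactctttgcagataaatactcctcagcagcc

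The factors that the cells secrete varied between cultures. Of the secreted factors 30 of 38 were present, and 15 of them spanned 2-fold, beside 1807 of all present genes (13.8%). The monocyte attractant Ccl2 was the brightest, at 290734, 203527 and 184931. Igfbp6, which holds back insulin-like growth factors, was even at 29404, 29369.6 and 28506. At least 2-fold higher in culture 1 were 10 factors and lower 2, beside 3.72% and 5.21% of all present genes. Among the higher ones were the matricellular proteins Ccn2 (19450.0, 1871 and 1799.6) and Ccn1 (61066, 23245 and 22402). The cytokines Il6 (11119.9, 2850.1 and 1954) and Il11 (1233, 167 and 171) and the ligand Wnt5a (589, 111 and 74.4) showed the same pattern, with culture 1 alone high. Csf1, Pdgfa, Inhba (1619, 517 and 502), Fgf7 and Ptgs2 made up the rest. Ptgs2, a prostaglandin synthase, is in the list although the enzyme itself stays in the cell. The lower ones were the binding proteins Igfbp5 (242, 1806 and 2215) and Igfbp4.

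For this list the median log2 difference of culture 1 from the mean of the others was 0.64, positive in 25 of 30 genes, and it ran from 0.57 to 0.80 under the scalings tried. Without culture 1 no secreted factor differed 2-fold, beside 0.708% of all present genes. Among the transforming growth factors Tgfb3 was brightest, at 11559, 20185 and 16422, with Tgfb2 and Tgfb1 below it. Hgf, Igf2, Igfbp3 and Grem1 were at the floor.

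The receptors that read such signals were present in 28 of 37 cases. Axl, a receptor kinase for Gas6, read 26124, 24937 and 21664, Fgfr1 28570.0, 20426 and 21733, the activin receptor Acvr1 24267, 16551 and 16041 and Igf2r 20458, 17398 and 18463. Type I and II receptors for TGF-beta, Tgfbr1 (4701, 3824 and 4489) and Tgfbr2 (11926, 9122 and 8809.9), were both present. Of the platelet growth factor receptors, Pdgfrb (2994, 5486 and 5351) was steadier than Pdgfra. Kit, Ret, Erbb4, Flt4 and Bmpr1b were at the floor, and Acvrl1 was the dimmest present receptor.

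Immediate early genes, which growth signals switch on within minutes, were present in 17 of 19 cases. Myc was the brightest, at 97077, 117147 and 118741, followed by Jund and Nr4a1 (14553, 13076 and 14124). Higher in culture 1 were 4 of them, the AP-1 subunits Fosl1 (3129, 743 and 767) and Fosl2 (5934, 1491 and 1441), the phosphatase Dusp1 and the stress factor Atf3, while the antiproliferative Btg2 was lower (4748, 12779 and 10466), beside 3.72% higher and 5.21% lower over all present genes. Fos itself read 912, 2050.2 and 1819. Egr3 was present on no array, and Fosb was the dimmest present member.

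**Figure D4:**
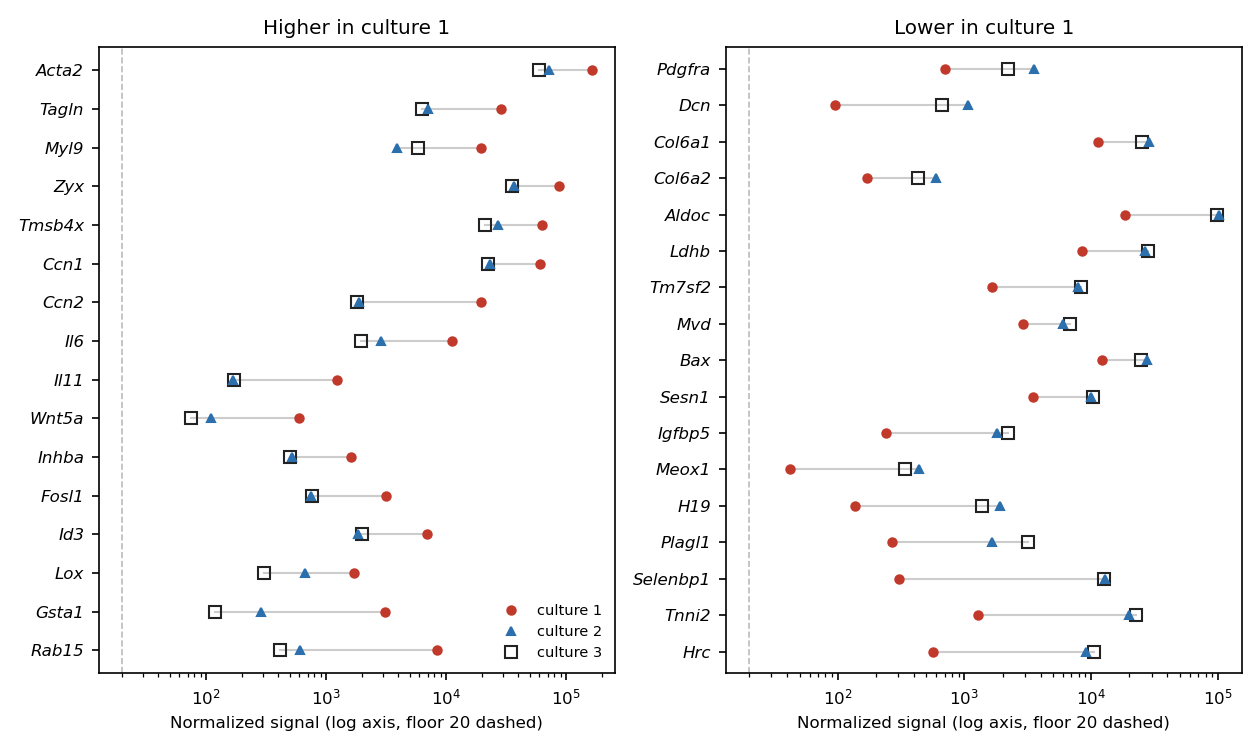
Normalized signals of genes at least 2-fold higher (left) or lower (right) in culture 1 than in both others, on a log axis, each symbol 1 culture. Genes of the lists and of the most variable genes were chosen for the plot after their values were seen. Cultures 2 and 3 lie near each other in most genes, for example 1871 and 1799.6 for Ccn2 beside 19450.0 in culture 1.

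Transcription factors of mesenchymal cells were present in 29 of 42 cases. Tead2, a partner of the YAP coactivator, was brightest at 52667, 64816 and 66831, followed by the homeobox factor Prrx2 (22516, 26023 and 27029), Tead1 and Snai2, a repressor of epithelial genes (22368, 16861 and 16037). Twist1, a marker factor of mesenchyme, hardly moved, at 3890.0, 3801 and 3790.4. The inhibitors of differentiation Id1, Id2 and Id3 were all higher in culture 1, Id3 at 6918, 1828 and 1992, and so was Tead4 (5232, 1729 and 1793). The homeobox factor Meox1 was lower, at 42.3, 441 and 339.8, as was Osr2. Of the 29 present factors 4 were at least 2-fold higher and 2 lower there, beside 3.72% and 5.21% of all present genes. Tbx5 and Tbx4 of the limbs, Pitx1, Hand2, Foxf1, Gata6 and Meox2 were at the floor, whereas the region factors Tbx15 (4308, 3922 and 3997), Tbx3 (1342, 1646 and 1603), En1 and Shox2 were present.

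Hox genes record position along the body axis, and 18 of 38 were present (47.4%, beside 57.2% of all genes). Hoxa7 (11166, 12563 and 13555), Hoxa3 (7731, 9099 and 8456), Hoxb4 (7727, 4693 and 5049) and Hoxa2 (5312, 5018 and 5055) were brightest. On no array were 16 Hox genes, including Hoxa10, Hoxa11, Hoxc8, Hoxc9, Hoxd12 and Hoxd13. Hoxc13, the last gene of its cluster, was present at 1524, 460.0 and 623. It was higher in culture 1, as was Hoxd4 (7023, 3304 and 2626), and Hoxa9 and Hoxc4 were the dimmest present members.

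Imprinted genes, which are read from 1 parental copy, were present in 11 of 20 cases, near the 57.2% of all genes. Sgce (19238, 20065 and 18994) and Igf2r led them, then Impact and Airn, the antisense transcript of Igf2r (3772, 7771 and 6075). The noncoding RNA H19 read 138, 1909 and 1374, lowest in culture 1, and 6 of its 7 probes passed background on at least 2 arrays. The growth regulator Plagl1 was likewise lowest there (269, 1664 and 3192) by 2 of its 3 present probes, the other of which was even (135, 146 and 113), while the Notch ligand Dlk1 was highest in culture 1 (6081, 2162 and 1039) and was the 1 member to differ 2-fold between cultures 2 and 3. Igf2, Mest, Cdkn1c, Nnat and Phlda2 were at the floor, although Igf2 and H19 are neighbours.

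Among noncoding RNAs 19 of 25 were present. The nuclear RNA Malat1 read 74876, 48592 and 66473, and the snoRNA hosts Snhg3 (54040.3, 60822 and 57199) and Gas5 (36533, 41122 and 48044) were of like brightness. Pvt1, beside Myc on the chromosome, read 89118, 39455 and 32362. Pvt1, the paraspeckle RNA Neat1 (26169, 12666 and 8751) and, by its brightest probe, Tug1 were higher in culture 1. Of the 2 other present probes of Tug1, 0 were 2-fold higher there and only 1 lay on the same side. Thus 3 of the 19 present were at least 2-fold higher and 1 lower, beside 3.72% and 5.21% of all present genes. Dimmest of those present were Oip5os1 and the telomerase RNA Terc (176, 77.7 and 106). Hottip, Snhg8 and Snhg12 were at the floor.

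The RNA that the study targeted in its other arrays, Ntep (A630089N07Rik), was present in all 3 control cultures at 279, 280.1 and 373, percentile 50.4, from 1 probe. Its signal thus lay near the middle of all probed genes and below the median of the present ones. Among long noncoding RNAs the median percentile was 26.2, below that of Ntep. Xist, the RNA that silences an X chromosome, was at the floor on all arrays by both of its probes. The study used Xist as a nuclear control by qPCR in fractions of 3T3 cells. Why the arrays gave no signal for it was not tested. Of the X inactivation and Y-linked genes, Xist counted in, 0 of 9 were present on all arrays. Eif2s3y, Ddx3y, Usp9y, Zfy1 and Tsix were at the floor, and Kdm5d and Sry passed background on 1 array each. The 60-base array probes of Ntep (chr16:98283712-98283771, minus strand, mm9), of Xist (chrX:100656289-100656348 and chrX:100662174-100662233, minus strand) and the brightest probe of H19 (chr7:149761492-149761551, minus strand) are printed, since these values rest on them. No base is in capitals because no part of a probe is singled out.
Ntep: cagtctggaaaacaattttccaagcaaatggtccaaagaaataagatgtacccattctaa
Xist, probe 1: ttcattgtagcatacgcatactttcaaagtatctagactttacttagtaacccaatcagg
Xist, probe 2: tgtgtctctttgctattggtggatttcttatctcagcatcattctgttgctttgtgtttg
H19: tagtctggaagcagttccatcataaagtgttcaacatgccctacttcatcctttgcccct

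Genes for the enzymes that GapmeRs rely on were present. Rnaseh1, which cuts RNA paired with DNA, read 6694, 5464 and 5744, and the RNase H2 subunits Rnaseh2a (9161, 12622 and 13626), Rnaseh2b (11048, 9889.7 and 10289) and Rnaseh2c (108797, 121864 and 118909) were present too. All 14 genes of the RNase H and RNA decay list were present. Nono, a paraspeckle protein, the exosome nuclease Dis3, the splicing factor Sfpq and the exonuclease Xrn2 (38208, 39397 and 34021) were bright, and Xrn1, its cytoplasmic relative, was dim (299, 505 and 369.8). Dcp2, which removes the cap of messenger RNAs, was the only member to span 2-fold, at 790.0, 216 and 170.5.

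The last list held genes that other assays of these cells had covered, and 16 of 18 of them were present. By their brightest probes the reference genes Gapdh, Actb and Hprt were even, with Hprt at 155455, 142414 and 135147. Acta2 and Ccn2 were at least 2-fold higher in culture 1 and Bax lower, so 3 of the list spanned 2-fold, beside 13.8% of all present genes. Ccnb1, the mitotic cyclin, read 53872, 55685 and 55934, Apaf1, which assembles the apoptosome, 5563, 5671 and 4814, and Tgfb1 1120.1, 757 and 806.

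Over all genes the spread between cultures was small for most and large for a minority. On the log2 scale the median SD was 0.22, the median distance from the lowest to the highest culture 0.42, and 1 in 10 present genes exceeded a distance of 1.16. Of the 1807 genes spanning 2-fold, 1757 (97.2%) had culture 1 above or below both others. At least 2-fold from both others lay 489 genes on the high side (3.72%) and 684 on the low side (5.21%) in culture 1. In culture 2 there were 16 (0.122%) and 9 (0.0685%), and in culture 3 18 (0.137%) and 20 (0.152%). Among 240 present probes printed in 10 spots, the median SD between spots of 1 array was 0.05, against 0.21 between cultures, which also holds any noise of RNA preparation, labelling and hybridization. Of the genes at least 2-fold from both others in culture 1, 212 had another present probe, and every such probe lay on the same side in 189 of them and was at least 2-fold apart in 104. Among those named here at least 1 such probe was less than 2-fold apart, or not on the same side, for 7 of 19, which were Csf1r, Ddr2, Nanog, P4ha3, Plagl1, Smtn and Tug1. Among genes present in cultures 2 and 3, whatever their call in culture 1, 105 of 13327 were at least 2-fold apart between these 2 cultures. In the lists these were Lox among fibroblast and collagen processing genes, Dlk1 among imprinted genes and Sox9 among mesenchymal factors (20, 93.6 and 193).

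Among genes present on all 3 arrays with a mean signal of at least 50, the widest span was that of Selenbp1, a selenium-binding oxidase, at 306, 12812 and 12649.5, a log2 distance of 5.39. D630039A03Rik (178, 5809.9 and 6561), the germ cell factor Sohlh1 (73.4, 2225 and 2095), the protease-like Capn6 (102, 2492 and 1689) and the nucleotide hydrolase Enpp3 (250.3, 5468 and 4749.5) had the same pattern, low in culture 1. So did genes known from muscle, the troponin Tnni2 (1279, 19776 and 22813) and the calcium-binding Hrc (560.5, 9152 and 10534), and Thrsp, a regulator of fat synthesis (199, 3905 and 4343). The opposite pattern was shown by the glutathione transferase Gsta1 (3089, 289 and 119.6), its relative Gm10639, the GTPase Rab15 (8343, 610.3 and 409.9) and Csf1r. Of the 20 widest of these genes, Spdye4b (75.02, 95.3 and 2596) and Kidins220 (208, 146 and 2446) were high in culture 3 alone, and for Kidins220 the other 2 probes were no higher there. The rest of the 20 (2310040G24Rik, Eif4e1b, Upb1, Wfdc2, 2900041M22Rik and Smim22) were low in culture 1.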

How the data were processed

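The authors extracted the scans with Agilent Feature Extraction 10.7.3.1 and deposited intensities per array (1 colour, linear, background subtracted), beside a table of intensities quantile normalized over the 6 arrays with a floor of 20. From the arrays labelled GapmeR control, spots of the same non-control probe were averaged, signals were quantile normalized over the 3 arrays, raised to a floor of 20 and put on the log2 scale (Python 3.11.15, numpy 2.4.6, pandas 2.3.3, matplotlib 3.10.9). Of 55681 probes 31257 were matched to 1 gene each through accessions, symbols and synonyms of a RefSeq table for GRCm38.p6, and each gene was read from its brightest probe. Presence needed most of the probe's spots well above background on each array. No groups were compared and no p-value was computed, and the number of arrays limits the precision. No paired analysis was possible because a single group was described.

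The genes named were chosen from the 25 brightest present on all arrays, the 20 with the widest span among those present on all arrays with a mean signal of at least 50, the 4 brightest, 2 dimmest and 2 most variable present members of each list, members present on no array, and the genes the study measured, and not every gene of these groups is named. Other genes were chosen after their values were seen. The members and the 37 gene lists were chosen with earlier results of these data known, and 6 members are not reported here and were taken out of their lists. Alternatives changed the normalization, the background correction (normexp in limma 3.58.1, R 4.3.3), the floor, the filter, the probe rule and the arrays used. The calculations were tested on simulated data.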

Additional observations from a re-analysis of the deposited data

Results flagged for a closer look

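Probes that could not be matched to a named gene were left out of the results above, yet 28.7% of the 24424 such probes were well above background on all 3 control arrays. Among probes with a gene name the share was 56.3%. What these probes measured was not analysed here.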

How the results depend on the processing

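The 13130 genes present on all 3 arrays became 13126 to 15867 under the other rules for presence, the latter with a looser test of signal over background, and 13297 to 13335 when 1 culture was left out, an alternative chosen after seeing the data.

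The spread depended on culture 1. With each culture left out in turn, the median SD of the log2 signal ran from 0.083 to 0.25, the number of genes spanning 2-fold from 114 to 1537 and the mean correlation from 0.973 to 0.996, and in each case the value without culture 1 was the one of least spread. Without a filter on presence 3819 genes spanned 2-fold, and 932 were at least 2-fold higher and 965 lower in culture 1, since more genes were counted. Under the other normalizations, background corrections, floors, filters and probe rules, genes spanning 2-fold numbered 1301 to 2390, genes higher in culture 1 374 to 618 and genes lower 467 to 860. Those culture 1 counts were run under alternatives chosen after seeing the data.

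For 382 named genes, the mean log2 signal moved by less than 1 SD between cultures in 4095 cases and by more in 489. The distance between the lowest and highest culture did so in 3917 and 667 cases. The difference of culture 1 from the others was run for the 99 named genes at least 2-fold from both others there. It kept its sign in every case. In 890 cases it moved by less than 1 SD and in 1 case by more, which was Csf1r by the mean over its probes. Scaling to the 75th percentile moved the median of that difference over all present genes to 0.11, from 0.02.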

Other observations

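Probes for the E1A spike-in RNAs were well above background in 8 of 10 cases on each control array, and those for ERCC spike-in RNAs in 1 of 96. Raw signals at the 75th percentile were 1161, 1347 and 1141 in cultures 1 to 3 before normalization, and probes well above background made up 51.7, 47.5 and 47.6% of all probes. Negative control probes had raw medians of 9.64, 13.0 and 12.1. Whether the larger share of probes above background in culture 1 has a part in its distance from the others was not tested.

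Precision rests on 3 arrays of 1 group. The labels do not say whether cultures were separate, although array names in a supplement carry a different day for each, untransfected cells were not among the arrays, and gene copy number and protein were not measured.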
